A study of Mus spretus with 8 samples.

Results

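Glutathione S-transferases of the alpha, pi, theta and zeta classes were examined in liver, as the 22 probes whose annotated gene symbol is Gsta1, Gsta2, Gsta3, Gsta4, Gstp1, Gstp2, Gstt1, Gstt2, Gstt3 or Gstz1. These are 10 of the 22471 genes named on the array, and 22 of its 42957 probes. The livers came from 8 male Mus spretus mice of the inbred SPRET/EiJ strain, a strain derived from a wild mouse species. The control group had 4 mice that ate a Harlan diet with corn oil alone. The DDE group had 4 mice that ate the same diet with 450 mg of p,p'-DDE per kg of feed, dissolved in corn oil, for 30 days from an age of 7 weeks. p,p'-DDE is a long-lived product into which the insecticide DDT breaks down. RNA of each liver was labelled with 1 dye and hybridized to 1 array, and values are signals on a log2 scale, given as mean ± SD with n = 4 livers per group.

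Cytosolic glutathione S-transferases join the tripeptide glutathione to reactive, electron-poor compounds, which makes them more soluble and ready for export. The alpha class is abundant in rodent liver and the pi class in male mouse liver. The theta class handles small halogenated compounds and hydroperoxides, and the single zeta enzyme works in the breakdown of tyrosine. Many transferase genes are switched on by the receptors CAR and PXR and by the transcription factor NRF2, and some insects convert DDT to DDE with an enzyme of the same superfamily.

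All 22 probes lay above the background level on all 8 arrays, where background is the level below which 95% of the probes for olfactory and vomeronasal receptors fall (from 7.56 to 7.81). The highest value was 16 on every array, and values of at least 15.5 are called near the ceiling, because little of a rise can be seen above them. A fold is given as "at least" where a value of the higher group lay there. It is also given so where a value of the lower group was at or below background. Values of the lower group below background were raised to that level for the fold. Bright or dark patches covered from 0.521% (DDE 1) to 9.50% (control 4) of the spots of an array. Hepatocyte markers were above background on all 8 arrays for 9 of 9 measured genes. Markers of exocrine pancreas were too, for 6 of 6, with a mean level over these genes of 12.40 to 15.64 in controls and 13.15 to 15.17 after DDE, and the lowest values in control 2 and DDE 2. Their part in the results was not tested.

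The comparison asks which of these transferases differed in liver after dietary p,p'-DDE. The theta class had the largest differences, with Gstt1 and Gstt2 both more than 4 times as bright after DDE, and Gstt2 and Gstt3 past the threshold. In the alpha class 1 of 2 probes of Gsta3 and 2 of 10 probes of Gsta4 rose, while Gsta1 and Gsta2 did not pass. No probe of the pi genes Gstp1 and Gstp2 passed (1 of 4 was higher at an unadjusted p under 0.05 and 0 lower), and the zeta gene Gstz1 had nearly equal means. Of the 22 probes 5 rose and 0 fell at an adjusted p under 0.05 (limma, Benjamini-Hochberg over all probes), against 2.34% of all 42957 probes that rose and 0.661% that fell, and 6% of the 13653 probes above background on every array that rose. Before adjustment 12 probes were higher and 0 lower at a p under 0.05, as were 10.7% and 4.22% of all probes, and 23.8% of those above background on every array were higher. For the gene counts before adjustment given further on, the shares of all named genes at their brightest probe were 11.4% higher and 4.57% lower. With each gene represented by its brightest probe, 3 of 10 genes rose and 0 fell, against 2.58% and 0.774% of all named genes. Of the 22 probes 9 had all DDE values above all control values, as had 8% of all probes and 16.4% of the probes above background on every array. Without DDE 2 the count of 5 probes fell to 0 and that of 3 genes to 0. It was 2 probes without control 2, control 3 or DDE 3 (1 gene each), 3 probes without DDE 1, and 4 to 6 without each of the other arrays. The median change over the 22 probes was 0.78, that over all probes 0.015, and that over the probes above background on every array 0.155. Gsta4 alone accounts for 10 of the 22 probes, so the probe counts and this median weigh that gene heavily. At the brightest probe of each gene the median change was 0.49 over the 10 genes and 0.015 over all named genes.

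**Figure D1:**
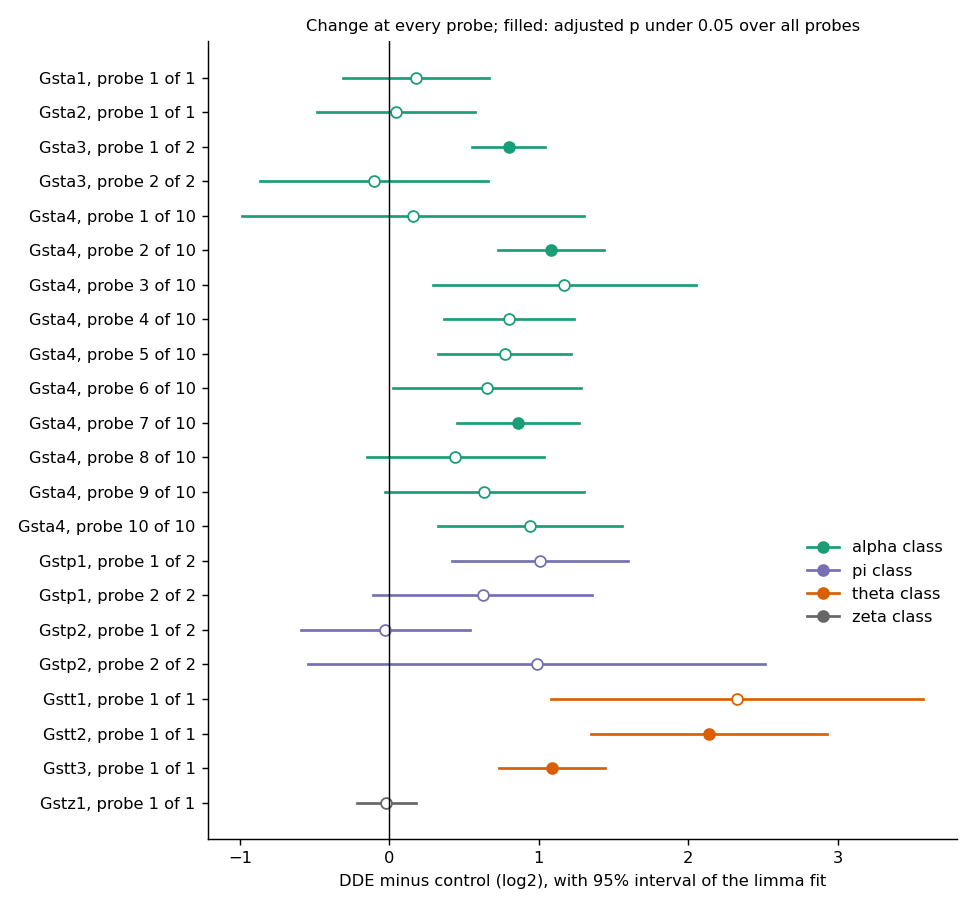
The horizontal axis gives DDE minus control on the log2 scale for each of the 22 probes (rows, in order of mean signal within a gene), with the 95% interval of the limma fit as a line and the class as the colour. Filled points, at 5 probes, passed an adjusted p of 0.05; the probes of Gstt1 and Gstt2 lie farthest to the right, at 2.33 and 2.14, and the zeta probe lies at -0.02.

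Theta enzymes remove halogen from small compounds and reduce organic hydroperoxides, and each of the 3 genes had 1 probe. Gstt2 was dim in controls, with 8.86, 8.86, 8.78 and 9.08 in controls 1 to 4. After DDE it had 10.78, 11.49, 11.73 and 10.14 in DDE 1 to 4. The lowest DDE liver, DDE 4, stood above every control. Gstt2 rose 4.41-fold, from 8.90 ± 0.13 to 11.04 ± 0.72 (limma change 2.14 with a standard error of 0.34, adjusted p = 0.025). The spread was wider after DDE than in controls.

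Gstt1, whose human counterpart is known for a common deletion and for acting on dihalomethanes, had 10.75, 10.73, 9.69 and 10.54 in controls 1 to 4. The DDE livers had 12.44, 12.98, 14.05 and 11.55. The groups did not overlap, but the DDE livers differed among themselves by up to 2.50 (SD 1.05). The change was 2.33 with a standard error of 0.53, or 5.02-fold, with a 95% interval of 1.08 to 3.57, and it did not pass (limma adjusted p = 0.072). The value of DDE 3, the highest, lay in a patch of the array. With values in patches left out, DDE 3 among them, the change was 1.90 and the adjusted p 0.0565. The adjusted p was under the threshold without DDE 4 (change 2.73, adjusted p = 0.0312), with array weights (0.033) and without the dimmer 50% of the probes (0.0438). These were 3 of 19 alternatives, and in the others the adjusted p was up to 0.202. Of the 8 fits that left out 1 array, Gstt1 passed in 1.

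Gstt3 was already bright in controls, with 14.40, 14.86, 14.82 and 15.09. It had 15.69, 15.96, 15.91 and 15.96 after DDE, all of them near the ceiling. Gstt3 rose at least 2.13-fold, from 14.79 ± 0.29 to 15.88 ± 0.13 (limma change 1.09, adjusted p = 0.0175). A larger rise could not have been seen, so the smaller change of Gstt3 beside Gstt1 and Gstt2 is not a measured order.

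Leaving out 1 array ended some calls of the theta class. Gstt2 passed in 2 of 8 fits that left out 1 array, those without control 4 and without DDE 4, and its adjusted p was 0.0513 to 0.0789 in the others. Gstt3 passed in 4 of 8, and missed without control 2 (0.0553), control 3 (0.0511), DDE 2 (0.0641) or DDE 3 (0.0538). The changes themselves ranged from 1.91 to 2.44 for Gstt2 and from 0.96 to 1.19 for Gstt3 in these fits.

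**Figure D2:**
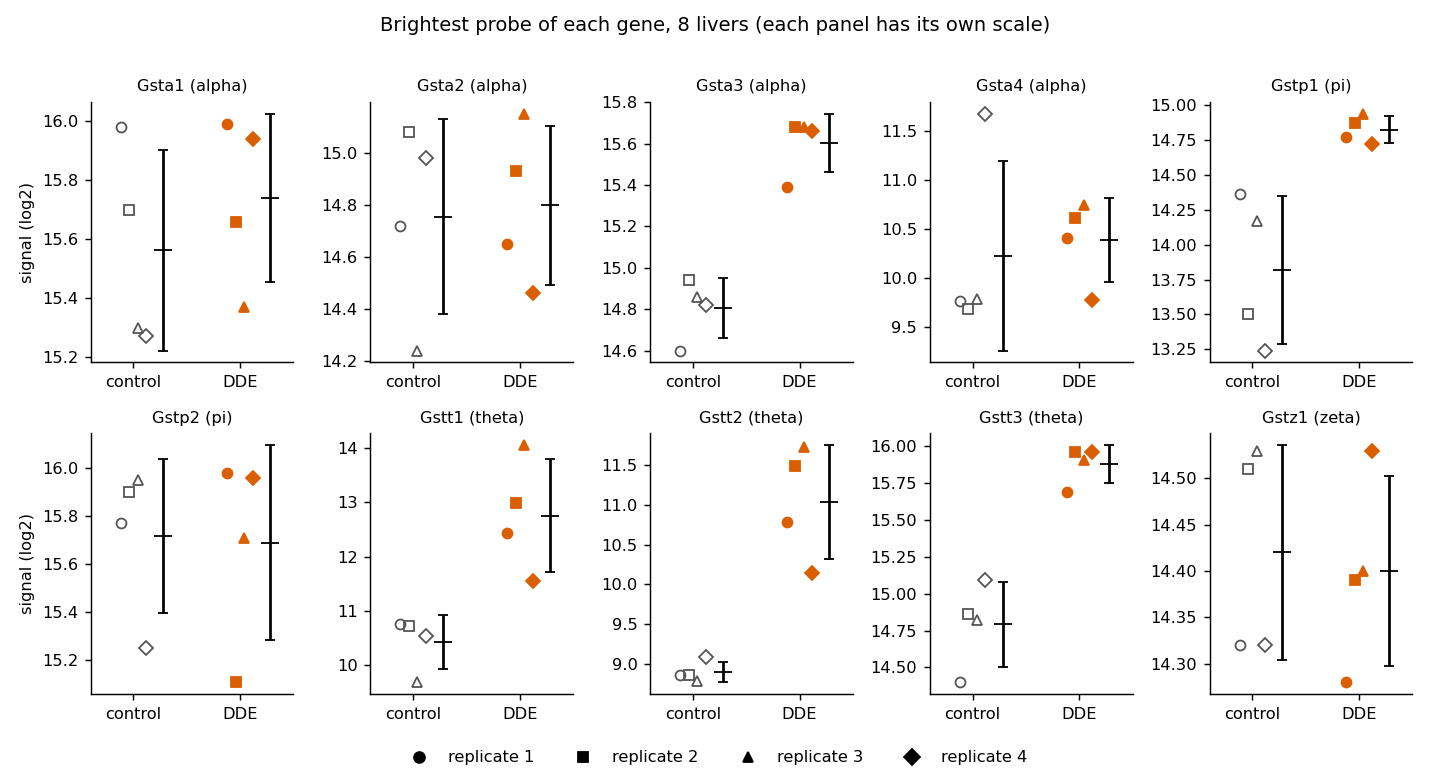
Each panel shows the brightest probe of 1 gene in the 4 control (open) and 4 DDE (filled) livers, with the log2 signal on the vertical axis and mean ± SD as a bar beside the points. The groups do not overlap for Gsta3, Gstp1, Gstt1, Gstt2 and Gstt3, and they overlap for the other genes shown.

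In the alpha class, Gsta3, an abundant liver enzyme that conjugates the aflatoxin epoxide in mice, had 14.60, 14.94, 14.86 and 14.82 in controls at its brighter probe. The DDE livers had 15.39, 15.68, 15.68 and 15.66 there. This probe rose at least 1.74-fold with no overlap (14.81 ± 0.15 to 15.60 ± 0.14, limma change 0.80, adjusted p = 0.0148), and 3 of the 4 DDE livers were near the ceiling. Its dimmer probe had 14.37, 14.76, 14.53 and 14.55 in controls. It had 14.55, 13.55, 15.22 and 14.48 after DDE, a change of -0.10 (adjusted p = 0.888). The control values of both probes lay close together, whereas DDE 2 was the lowest liver and DDE 3 the highest at the dimmer probe.

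The difference between the changes of both Gsta3 probes was 0.90 with a standard error of 0.36. Its exact two-sided permutation p was 0.0286, the smallest that 4 against 4 arrays can give, and 0.0857 after adjustment over the 3 genes with 2 probes. It could not have passed after adjustment unless another of the 3 genes had also reached the smallest p, so the adjusted value decides nothing. With the mean of its probes Gsta3 changed by 0.35 and did not pass (limma adjusted p = 0.429, over the 22471 named genes). Deviations of the Gsta3 probes from the group means had an r of 0.08 over the 8 arrays, against 0.79 for the probes of Gstp1 and 0.23 for those of Gstp2. The brighter Gsta3 probe passed in 7 of 8 fits without 1 array, and missed without DDE 2 (change 0.77, adjusted p = 0.0572).

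Gsta4, which conjugates the lipid peroxidation product 4-hydroxynonenal, had 10 probes, and all 10 had higher means after DDE, with changes from 0.16 to 1.17. The 10 probes need not be 10 sequences, so they are not 10 independent measures. The median of the 10 probes was 9.90, 9.74, 9.69 and 9.38 in controls 1 to 4 and 10.40, 10.55, 10.73 and 10.43 in DDE 1 to 4. Taken over this median, Gsta4 was 1.80-fold higher, with 9.68 ± 0.21 in controls and 10.53 ± 0.15 after DDE (limma change 0.85, standard error 0.13, adjusted p = 0.0205). With the mean of the probes the change was 0.75 (adjusted p = 0.0175). Both of these fits took 1 value per gene and adjusted over the 22471 named genes.

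Single probes of Gsta4 were less even. The second and the seventh brightest passed (changes 1.08 and 0.86, limma adjusted p = 0.0175 and 0.0493). The second kept its call in 7 of 8 fits without 1 array (0.0631 without DDE 2), while the seventh kept it only without control 1. The brightest probe had 9.76, 9.68 and 9.78 in controls 1 to 3 but 11.68 in control 4, where its spot lay in a patch, and it changed by 0.16 (adjusted p = 0.884). That 1 value made it the brightest probe. Within 1 array the 10 probes spanned from 0.54 (DDE 1) to 2.52 (control 4). The array medians did not overlap between the groups.

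**Figure D3:**
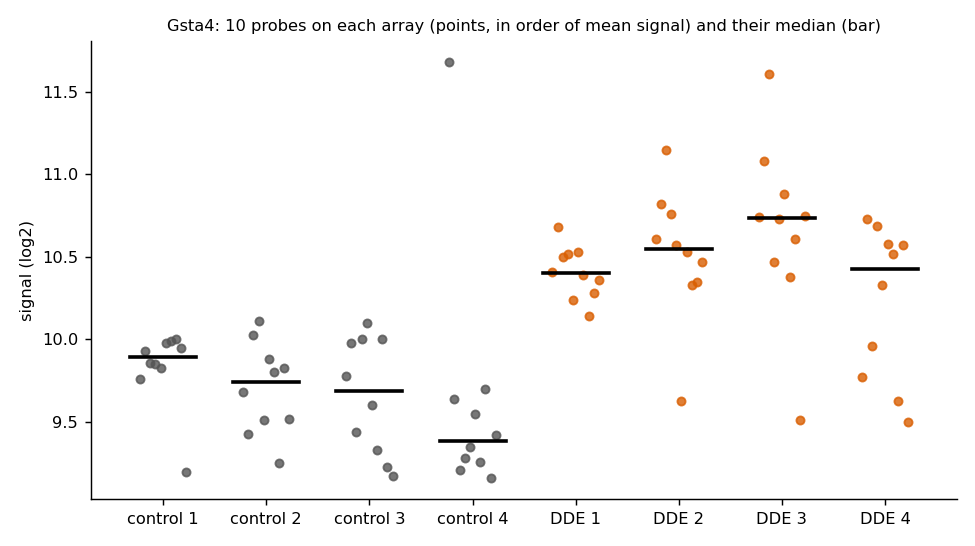
Points are the 10 probes of Gsta4 on each of the 8 arrays, with the log2 signal on the vertical axis, and bars are their medians. The medians lie between 9.38 and 9.90 in controls and between 10.40 and 10.73 after DDE, and the single point at 11.68 in control 4 lay in a patch.

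Gsta1 and Gsta2, close relatives that conjugate many drugs and reduce lipid hydroperoxides, had 1 probe each. Gsta1 had 15.98, 15.70, 15.30 and 15.27 in controls and 15.99, 15.66, 15.37 and 15.94 after DDE. With 2 control and 3 DDE values near the ceiling, its change of 0.18 (limma adjusted p = 0.68) leaves a larger change unseen. Gsta2 had 14.72, 15.08, 14.24 and 14.98 in controls and 14.65, 14.93, 15.15 and 14.46 after DDE. Its change was 0.04 with a 95% interval of -0.49 to 0.57 (adjusted p = 0.937), and both groups covered much the same range.

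The pi class is the main form of male mouse liver, and its genes Gstp1 and Gstp2 are nearly identical in sequence, so each probe may bind both transcripts. Gstp1 had 14.36, 13.50, 14.17 and 13.24 in controls at its brighter probe. After DDE it had 14.77, 14.87, 14.94 and 14.72, above every control and with a smaller spread (SD 0.099 against 0.53). The change of 1.01, with a 95% interval of 0.42 to 1.60, did not pass (limma adjusted p = 0.0919), and it passed in 0 of 19 alternatives (adjusted p from 0.0547 to 0.214). The dimmer probe of Gstp1 had 13.44, 12.86, 13.60 and 12.52 in controls and 13.89, 14.05, 13.92 and 13.06 after DDE, a change of 0.62 (adjusted p = 0.434). At both probes controls 2 and 4 were the low livers.

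Gstp2 had a probe near the ceiling, with 15.77, 15.90, 15.95 and 15.25 in controls. This probe had 15.98, 15.11, 15.71 and 15.96 after DDE. With 3 control and 3 DDE values near the ceiling, a rise could hardly be seen there. The measured change was -0.03 with a 95% interval of -0.59 to 0.54 (limma adjusted p = 0.962). The other probe of Gstp2 had 14.82, 14.07, 13.32 and 11.97 in controls and 15.18, 15.16, 13.83 and 13.95 after DDE. It had the widest control spread of the 22 probes (SD 1.22), and its change of 0.98 did not pass (limma adjusted p = 0.577, 95% interval -0.54 to 2.51).

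The zeta enzyme Gstz1, or maleylacetoacetate isomerase, carries out the step before last in tyrosine breakdown. It had 14.32, 14.51, 14.53 and 14.32 in controls and 14.28, 14.39, 14.40 and 14.53 after DDE. The change was -0.02 with a 95% interval of -0.22 to 0.18 (limma adjusted p = 0.919), the narrowest interval of the 22 probes and with room left below the ceiling. Of 7 measured genes around it in tyrosine breakdown 0 rose and 0 fell, and before adjustment 3 were higher and 0 lower at a p under 0.05. Pcbd1, which regenerates the cofactor of phenylalanine hydroxylase, had the smallest p (14.63 ± 0.37 to 15.59 ± 0.41, adjusted p = 0.113).

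Members of a class were compared directly by the difference of their brightest probes within each array, for the 10 pairs within the alpha, pi and theta classes. None of the 10 passed after adjustment over the pairs (exact two-sided permutation tests, adjusted p from 0.171 to 0.943), a test that could hardly pass here, since at least 6 of the 10 would have to reach the smallest possible p. Of the 10 pairs 1 had an unadjusted p under 0.05. That pair was Gstp1 and Gstp2, where Gstp1 changed by 1.04 more, with a standard error of 0.31 (exact p = 0.0286, the smallest possible here). As Gstp2 was near the ceiling at this probe, the difference cannot be told apart from a limit of the measurement. Gstt1 changed by 0.19 more than Gstt2, with a standard error of 0.31 (exact p = 0.6). Gsta3 changed by 0.76 more than Gsta2, with a standard error of 0.24 (exact p = 0.0571).

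The DDE livers took the same order at several members. From high to low it was DDE 3, DDE 2, DDE 1 and DDE 4 for Gstt1, Gstt2, Gsta2 and the brighter probe of Gstp1, a pattern noticed after the values were seen. Deviations from the group means had an r of 0.88 between Gstt1 and Gstt2 and 0.85 between Gstt1 and Gsta2 over the 8 arrays. Gstp1 shared the order of the DDE livers, but over the 8 arrays, controls included, it had an r of 0.03 with Gstt1, 0.04 with Gstt2 and -0.44 with Gsta2. They had an r of 0.78 between Gsta3 and Gstt3, for both of which DDE 1 was the lowest DDE liver, and -0.07 between Gstt1 and Gstt3. Gsta1 and Gstt3 went apart (r = -0.71), both with DDE values near the ceiling. Values of 1 array share its RNA, labelling and surface, so these correlations describe the 8 arrays and carry no test.

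**Figure D4:**
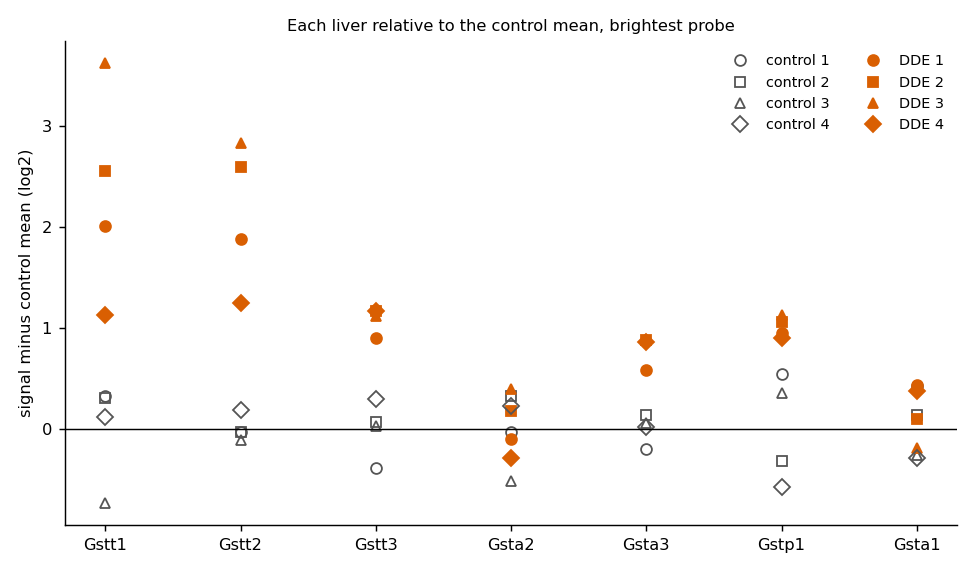
The vertical axis gives each liver's log2 signal minus the control mean of that gene at its brightest probe, for 7 members on the horizontal axis, with open symbols for controls and filled symbols for DDE. DDE 3 is the highest and DDE 4 the lowest DDE liver for Gstt1, Gstt2, Gsta2 and Gstp1, and the DDE livers lie within 0.29 of each other for Gsta3.

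The member with the smallest p was Gsta3, at its brighter probe. Among 8540 other genes above background on every array, those most like it over the 8 arrays were Plk3 (r = 0.991), Adh1 (r = 0.986), Inmt (r = 0.984), Lppos (r = 0.983) and Abcc3 (r = 0.981). This likeness includes the difference between the groups, and all 5 were past the threshold, with changes of 1.66, 2.00, 3.74, 1.05 and 1.77 and limma adjusted p from 0.00676 to 0.0103. Deviations from the group means of these genes had an r of 0.76 to 0.90 with those of Gsta3. The r by which the genes were picked rests on these deviations too. Neither this second r nor the calls are therefore separate evidence of likeness.

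Of 4 other genes of these classes, 2 were measured. Gstp3, a further pi gene, had 7.68, 7.47, 7.58 and 7.44 in controls, none above background, and 8.13, 7.95, 8.17 and 7.90 after DDE, and it rose at least 1.28-fold (limma adjusted p = 0.0394, and 0.033 to 0.107 without 1 array, past the threshold in 1 of 8 such fits, that without DDE 4). Gstt4 was above background in control 3 alone, at 10.22, and between 7.06 and 7.32 on the other 7 arrays. The mu class, the other large group of liver transferases, had 4 of 7 genes that rose and 0 that fell (6 and 0 before adjustment), with a median change of 1.17. Its members past the threshold were Gstm4 (8.34-fold), Gstm3 (at least 5.05-fold), Gstm6 (2.48-fold) and Gstm2 (at least 2.25-fold). Genes of this and the other lists are given at their brightest probe only. Gstm2 and Gstm6 had 3 probes each and Gstm3 and Gstm4 had 2, and whether their probes agree was not examined. Gstm2 missed the threshold without DDE 1, DDE 2 or DDE 3 (limma adjusted p up to 0.0635), and Gstm3, Gstm4 and Gstm6 kept their calls without any 1 array. The medians of the other classes were 0.17 for 4 alpha genes, 0.49 for 2 pi genes, 2.14 for 3 theta genes and -0.02 for Gstz1. Whether classes differ was not tested. Of 11 transferases of other families, such as the microsomal ones, 0 rose and 0 fell, and before adjustment 2 were higher and 0 lower at a p under 0.05. Mgst3, a microsomal enzyme, had the smallest p (10.95 ± 0.71 to 12.88 ± 0.61, limma adjusted p = 0.067).

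Around the transferases, 1 of 12 genes of glutathione synthesis and recycling rose and 0 fell (3 and 0 before adjustment, at a p under 0.05). Gsr, the gene of glutathione reductase, rose 1.88-fold (limma adjusted p = 0.0172), except without control 2 or DDE 2 (up to 0.0634). Gclc, the catalytic subunit of the rate-limiting enzyme of glutathione synthesis, had 8.85, 8.96 and 9.06 in controls 1 to 3, 13.83 in control 4 in a patch, and 10.17, 10.96, 11.21 and 10.72 after DDE. The change of 0.59 did not pass (limma adjusted p = 0.808). With the patch value of control 4 left out it was 1.81 with a standard error of 0.24 and passed (adjusted p = 0.0153), and the other 3 controls lay below every DDE liver. In the later steps, in which conjugates are exported and trimmed to mercapturates, 1 of 16 genes rose and 0 fell (3 and 1 before adjustment). It was Abcc3, an export pump for conjugates in the basal membrane, which rose 3.42-fold (adjusted p = 0.00676). Abcc2, the pump towards bile, had 12.03 ± 0.20 without DDE and 12.05 ± 0.70 with it (adjusted p = 0.98).

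**Figure D5:**
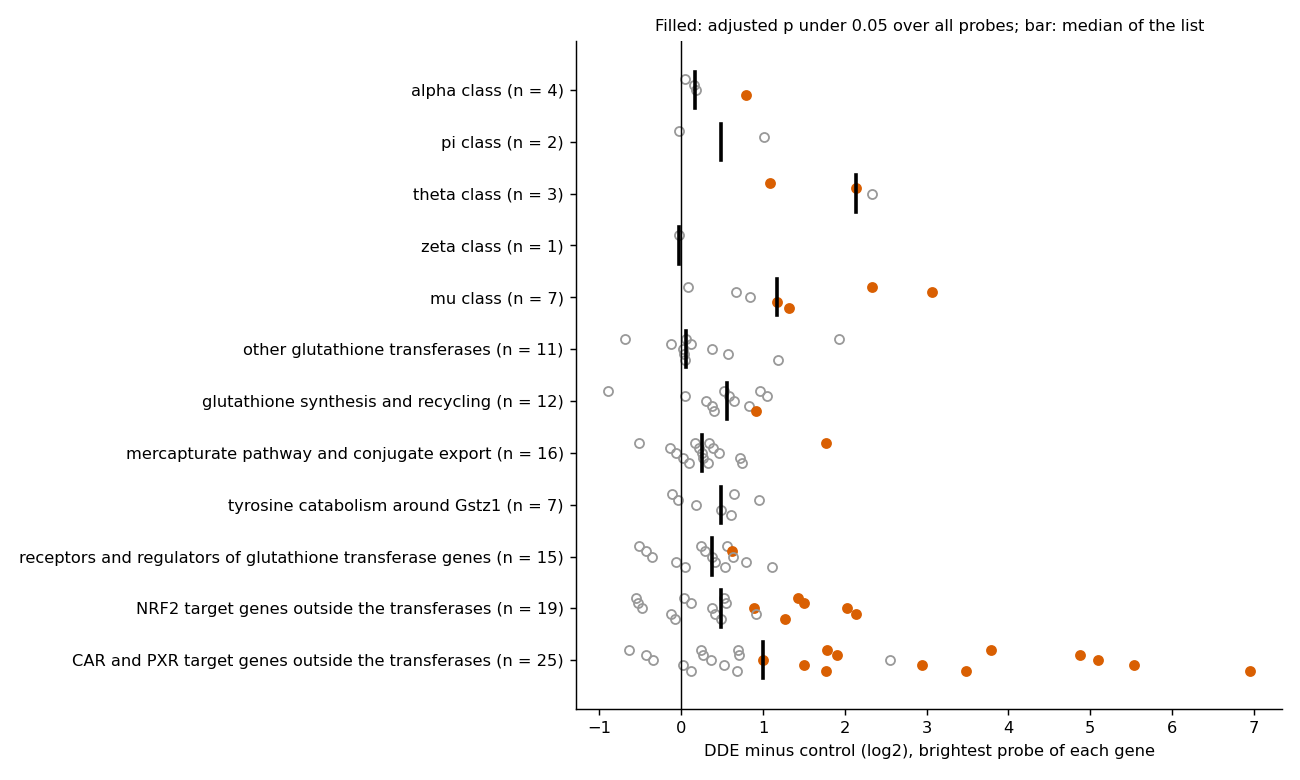
Each point is the brightest probe of 1 gene, with DDE minus control on the log2 scale on the horizontal axis and the gene list on the vertical axis. Filled points passed an adjusted p of 0.05 and black bars are list medians, which run from -0.02 for the zeta class to 2.14 for the theta class among the lists drawn; cell markers, Gstp3 and Gstt4 are not drawn.

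Among receptors and regulators of transferase genes 1 of 15 rose and 0 fell (3 and 0 before adjustment). Nr1i2, the gene of PXR, rose at least 1.43-fold, from 7.59 ± 0.090 to 8.21 ± 0.11 (limma adjusted p = 0.0153), and it was above background in 1 of 4 controls. Nr1i3, the gene of CAR, had 10.33 ± 0.76 and 10.90 ± 0.50, and Nfe2l2, the gene of NRF2, had 10.31 ± 0.42 and 10.95 ± 0.59, and both missed the threshold (adjusted p = 0.617 and 0.462). Of 19 NRF2 targets outside the transferases 6 rose and 0 fell (8 and 0 before adjustment), with a median change of 0.49. The largest rises were in Srxn1 (4.42-fold), which repairs peroxiredoxins, in the malic enzyme gene Me1 (4.08-fold), in Cat (2.82-fold) and in the heme transporter gene Slc48a1 (2.70-fold). Srxn1 kept its call without any 1 array, while Me1, Cat and Slc48a1 each kept it in 1 of 8 such fits, without control 1, DDE 3 and DDE 4, respectively (adjusted p up to 0.116, 0.0966 and 0.112). Of 25 CAR and PXR targets outside the transferases 12 rose and 0 fell (17 and 1 before adjustment), with a median change of 1.00. The largest rises were in cytochromes P450: Cyp2b10 was at least 124-fold higher, Cyp2c55 37.2-fold, Cyp2a4 29.3-fold and Cyp2b9 24.6-fold, each a lower bound. Not all P450 genes of the list went up, and the Cyp3a genes split. Cyp3a13 rose 2.00-fold (limma adjusted p = 0.0473). Cyp3a25 and Cyp3a11 had lower means after DDE (changes -0.635 and -0.34, adjusted p = 0.157 and 0.344), and all controls of Cyp3a11 were near the ceiling. Over all the other lists, those of cell markers and Gstp3 included and Abcc3, which is in 2 of them, counted once, 26 genes rose, against 15 without DDE 2 and 16 without control 2. The lists were written with earlier results of these data known, and the CAR and PXR targets and these transferases are not separate evidence.

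Markers of other cells were set beside these results, at the limma threshold and, before adjustment, at a p under 0.05. Of 6 bile duct markers 0 were above background on all 8 arrays and 0 passed (0 higher and 0 lower before adjustment). Their mean level was 7.52 to 8.70 in controls and 7.35 to 7.56 after DDE. Control 1 had the highest Krt19 (12.12), Krt7 (8.44) and Tspan8 (9.25), none in a patch. Control 4 had the highest Epcam (7.97) and Sox9 (13.68, in a patch). Cftr was above background on no array. Kupffer cell and leukocyte markers (0 of 11 passed, 0 higher and 1 lower before adjustment, smallest p in Cd5l, adjusted p = 0.183) had mean levels of 8.61 to 9.59 in controls and 8.76 to 9.24 after DDE. Endothelial markers (0 of 7, with 1 and 0 before adjustment) lay at 9.34 to 10.04 and 9.66 to 10.12, and red cell markers (0 of 5, with 1 and 0) at 13.86 to 14.67 and 13.82 to 15.05. Within the endothelial and red cell lists the smallest p were those of Cdh5 and Alas2 (limma adjusted p = 0.199 and 0.163). Of 7 stellate cell markers 1 rose and 0 fell, and before adjustment 4 were higher and 0 lower, the most of the marker lists. They were the collagen genes Col3a1 (change 1.07, limma adjusted p = 0.0877) and Col1a1 (0.62, adjusted p = 0.152), Lrat (0.34, adjusted p = 0.144) and Reln, the one that passed, which was above background in no control and in 2 DDE livers (adjusted p = 0.0391, and up to 0.116 without 1 array, with 1 of 8 such fits past the threshold, that without control 4), and the mean level of the list was 7.99 to 8.53 in controls and 8.45 to 9.18 after DDE. The highest of these, DDE 4, held Des at 13.65, in a patch, against 7.81 to 7.93 in the other DDE livers. Pancreas markers (0 of 6, with 0 and 0 before adjustment) and gut and gallbladder markers (0 of 6, with 0 and 1) did not pass, with Cel and Fabp2 at the smallest p (adjusted p = 0.88 and 0.305). The mean level of the gut and gallbladder markers was 8.54 to 9.99 in controls and 8.21 to 8.51 after DDE. Muc2 was at 15.49 in control 2, in a patch, and below background on the other 7 arrays. Control 1 had the highest Lgals4 (11.05), Krt20 (10.50) and Vil1 (8.86), none in a patch. Fabp2 was highest in control 2, and Cdx2 was above background on no array. Of 9 hepatocyte markers 0 rose and 1 fell (0 and 1 before adjustment), Apoa1 (at least 1.52-fold, adjusted p = 0.04, and past the threshold only without DDE 2 among the 8 fits without 1 array, up to 0.105). The part of other cells in the transferase results was not tested, and in whole liver a change in cell number cannot be told apart from a change in RNA per cell.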

How the data were processed

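The deposited values are log2 signals for each probe and liver, as the authors normalized them. How they did so, and any background correction, is not given in the sources used here. Per the labels, Cy3-labelled cRNA was made from total RNA. Column medians were 7.46 to 7.47. Probes took gene symbols from the annotation table (33009 probes with 1 symbol, 9948 with none). Gene sequences and positions were not used here. Probes were designed on reference mouse sequence and may bind Mus spretus transcripts less well.

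Each probe was fitted with limma 3.58.1 (lmFit, eBayes) in R 4.3.3, DDE against control, 4 arrays each, with two-sided p-values and Benjamini-Hochberg adjustment over the 42957 probes. Fits on the mean or the median of a gene's probes were adjusted over the 22471 named genes instead. Differences between members were tested by exact permutation (SciPy 1.17.1). Nothing in the sources used here says more about the replicates than that each is 1 mouse's liver. The number of arrays limits the precision. On simulated data 40%, 64%, 82% and 96% of the probes given log2 changes of 1, 2, 3 and 4 were called, and 2 of 42757 unchanged probes. In that simulation far fewer of the 42957 probes changed than the 1289 called in these data. Its noise was independent between probes and held no patches. What the adjustment calls depends on how many probes change, so these shares need not hold for these data.

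The members and lists were chosen with earlier results of these data known. Named are all members, in each other list up to 4 genes with the largest change past the threshold (else the smallest p), and the 5 genes most like the member with the smallest p; other genes were chosen after their values were seen. List symbols not found in the annotation table were left out. Background was set from 1638 receptor probes. Patches were spots with neighbours (7 rows by 5 columns, on a grid of 85 columns read from the feature numbers) whose deviations from the probe medians had a median beyond 0.3. These rules and the level of 15.5 were chosen after the data were seen. The alternatives are given in the closing section, where the median of a gene's probes and leaving out control 4 with DDE 4 were also added after seeing the data.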

Additional observations from a re-analysis of the deposited data

Results flagged for a closer look

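In groups of 4 livers, 8 of 96 groups tested had 1 liver far from the other 3, and chance gives about 1 in 20. Tested were the controls and the DDE livers at each member probe and at the genes named by rule in the other lists. Among the members, the brighter probe of Gsta3 had 15.39 in DDE 1 against 15.66 to 15.68 in the other DDE livers. The brightest probe of Gsta4 had 11.68 in control 4, in a patch of the array, against 9.68 to 9.78. The dimmer probe of Gstp1 had 13.06 in DDE 4 against 13.89 to 14.05. Among the genes named by rule, Gstm6 had 9.39 in control 2 against 9.06 to 9.09, and Cyp2b10 had 9.57 in control 4 against 8.79 to 8.87. The endothelial marker Cdh5 had 7.97 in control 3 against 8.20 to 8.23. The pancreas marker Cel had 12.85 in control 2, in a patch, against 15.64 to 15.97, and the gut marker Fabp2 had 15.32 in control 2, in a patch, against 13.78 to 13.96. Genes named for other reasons were not tested in this way, and some of them also had 1 far liver. These include Gclc (13.83 in control 4), Gstt4 (10.22 in control 3), Muc2 (15.49 in control 2) and Des (13.65 in DDE 4).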

How the results depend on the processing

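Of the 22 probes, 5 rose with all arrays, 8 with array weights and 0 with the replicate number as a block. At the brightest probe of each gene 3 of 10 rose, 0 with the replicate block, 4 with array weights, and 3 with the mean or the median of a gene's probes, where Gsta4 passed and Gsta3 did not. The labels do not say that the numbers pair animals, and the deviations of same-numbered arrays had an r of 0.223, 0.114, 0.117 and -0.0823. The share of spots in patches rose with the replicate number in both groups. It was 1.16%, 4.25%, 5.45% and 9.50% in controls 1 to 4 and 0.521%, 3.03%, 4.43% and 7.59% in DDE 1 to 4. What lies behind this was not tested. Each array correlated best with its own number in 5 of 8 cases. Over all probes 9 were called with the block, all 9 among the 1289 called without it. The changes must be the same in both fits, as each number occurs once per group, so their equality says nothing about stability. The block also leaves less data to estimate the error. Calls were lost even where the standard error fell, as at the brighter Gsta3 probe (0.104 to 0.063), Gstt3 (0.151 to 0.094) and both called Gsta4 probes. That of Gstt2 rose (0.337 to 0.359). Without 1 array, from 0 to 6 member probes and from 0 to 4 genes rose, and none fell. The count was 0 without DDE 2 and 2 without control 2, control 3 or DDE 3, when calls over all probes were 332, 387, 534 and 533.

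Of the other lists 26 genes rose and 1 fell. Without 1 array 15 to 24 rose and 0 to 2 fell, and 0 fell without the dimmer 50% of the probes or without control 4 and DDE 4. Changes that crossed 0 in fits without 1 array, none past the threshold, were those of Gsta2 (-0.13 to 0.16), the dimmer Gsta3 probe (-0.36 to 0.20), the brightest Gsta4 probe (-0.024 to 0.64), the brighter Gstp2 probe (-0.18 to 0.17) and Gstz1 (-0.063 to 0.02). Gstp2 changed by 0.48 with the mean and with the median of its probes, against -0.03. Without 1 array Gsta1 minus Gsta2 ran from -0.044 to 0.38, Gsta1 minus Gsta4 from -0.56 to 0.31, Gsta2 minus Gsta4 from -0.53 to 0.18 and Gstt1 minus Gstt2 from -0.02 to 0.31; these differences were not tested. With the mean and the median of probes, Gsta1 minus Gsta4 turned to -0.57 and -0.67, and Gsta3 minus Gsta4 to -0.40 and -0.50. The cause was not tested, except that the brightest Gsta4 probe held the patch value of control 4. No pair passed in the 3 alternatives with a test either, which says nothing about stability, as at least 6 of 10 pairs must reach the smallest p for any to pass. The signal limits most Gsta1, Gstp2 and Gstt3, which lay near the ceiling.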
